A study of Mus musculus with 3 samples.

Results

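The 2-oxoglutarate dependent dioxygenases are enzymes that use iron, oxygen and 2-oxoglutarate to hydroxylate or demethylate DNA, RNA, histones, collagen and the hypoxia-inducible factors (HIF). They were taken by gene symbol, 42 genes in all out of the 17796 in the table: 3 TET genes, 13 histone demethylases, 4 other JmjC enzymes, 4 HIF hydroxylases, 5 collagen hydroxylases, 9 genes of the ALKBH and Fto group, and Ogfod1, Ogfod2, Ogfod3 and Asph. All 42 were found, and all had a mean of at least 1 CPM (reads scaled to a library total of 1000000) over the libraries. The rule names genes by enzyme class and uses no measured value, though it was drawn up with earlier results of these data known.

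RNA came from T cells of the spleen of C57BL/6 mice, a wild-type inbred strain, and only polyadenylated RNA was sequenced. The young group were mice of 2 months, labelled vehicle, with no number of doses or length of course given. The aged vehicle and aged fumarate groups were mice with a stated age of 24 months that received vehicle or fumarate at 10 mg/kg, with 3 doses in each week over 2 months. Whether 24 months was the age at the start or at the end of that course is not labelled. After isolation, cells of all 3 groups were stimulated for 3 days with immobilised anti-CD3 (2 ug/ml) and anti-CD28 (5 ug/ml) together with interleukin 2 (100 IU/ml), so fumarate was given to the mice and the culture is not labelled with it. Each group is 1 library, and whether it pools several mice is not labelled, so the differences that follow compare single libraries and carry no test. The labels do not say how the T cells were purified.

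These enzymes take 2-oxoglutarate, a metabolite of the tricarboxylic acid cycle, as co-substrate and release succinate. Succinate and fumarate resemble it and can compete with it in the active site, so that cells with high fumarate can show more methylated DNA and histones and more stable HIF. In T cells the TET enzymes and histone demethylases act on the chromatin of differentiation genes, and the HIF hydroxylases set how far the HIF programme of glycolysis runs after activation. The files measure messenger RNA only, not the activity of any enzyme or the amount of any metabolite.

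One read was worth 0.0244 CPM in the young, 0.0579 CPM in the aged vehicle and 0.0722 CPM in the aged fumarate library, so the young library was the deepest. The markers of T cells were present in all 3 libraries, with a summed level over 18 genes of 4892 CPM in the young, 4262 CPM in the aged vehicle and 5227 CPM in the aged fumarate library. Thy1, at 752, 988 and 1453 CPM in that order, was the 1 marker at least 1.5-fold higher in fumarate over young. By log2 ratio of CPM + 1, 14 of the 18 were lower in that pair (median −0.20). In aged vehicle over young 15 were lower (median −0.46), and in fumarate over vehicle 15 were higher (median 0.22). The aged vehicle library stood apart by genes of other blood lineages. Its 12 erythroid and platelet markers summed to 1444 CPM, against 13.3 CPM in young cells, against 181 CPM in the fumarate library, and its 10 basophil and mast cell markers to 488 CPM, against 6.03 and 87.5 CPM. All 22 of these genes were at least 1.5-fold higher than in the young library and at least 1.5-fold lower with fumarate. Markers of macrophages and monocytes (8 of 10 in the table) summed to 3.03 CPM in the young, 33.5 CPM in the aged vehicle and 5.41 CPM in the fumarate library, with Csf1r and C1qb at 0, or at a vanishing fraction of a read, in the young and fumarate libraries, and so were Fcgr1 in the young and Adgre1 in the fumarate library. The 6 stromal and endothelial markers in the table summed to 30.5, 115 and 60.7 CPM in the same order, and the 8 NK cell markers to 141, 189 and 281 CPM. Klrk1, Klrd1 and Eomes gave most of the NK cell sum in each library. These 3 were at least 1.5-fold higher in fumarate over vehicle, but Klra8 and Styk1 were at least 1.5-fold lower. The sum thus follows Klrk1, Klrd1 and Eomes, and whether NK cells were more numerous was not tested. Hba-a2, Col1a1 and Klra8 were at 0 in the fumarate library in the same sense. The 12 B cell markers summed to 8.15, 19.6 and 20.7 CPM, and the 7 plasma cell markers to 814, 584 and 566 CPM, mostly from Irf4 and Xbp1, which activated T cells also express. The part of these cells in any result below was not tested unless a value is given beside it, and in such bulk RNA fewer cells of a type and less RNA per cell cannot be told apart.

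On the CPM as deposited, most of these enzymes were within 1.5-fold in each pair of libraries, and so were most genes. Scaling to the T cell markers moves these counts, as given below. Of the 42 genes, 31 stayed within 1.5-fold in every pair of libraries, taken on the log2 ratio of CPM + 1, and 11 passed that limit in at least 1 pair. The 11 were Tet1, Tet3, Kdm4b, Kdm5b, Kdm7a, Egln1, Egln3, P4ha2, Plod1, Plod3 and Asph. Most genes of the table were also within the limit in each single pair. The counts were 36 of 42 members beside 10551 of 13750 genes for aged vehicle over young and 40 beside 11909 for fumarate over vehicle. For fumarate over young they were 33 beside 11378. The share of all genes within it in every pair was not computed, so the 31 have no such background. The summed level of all 42 was 2480.2 CPM in the young, 1983 CPM in the aged vehicle and 2024 CPM in the aged fumarate library. Per kilobase of exon, the highest levels in the young library were those of Egln3 (72.8 CPM per kb), Egln1 (66.7 CPM per kb), Alkbh5 (40.9 CPM per kb) and P4ha1 (29.3 CPM per kb). The lowest was that of Tet1, at 0.384 CPM per kb.

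**Figure D1:**
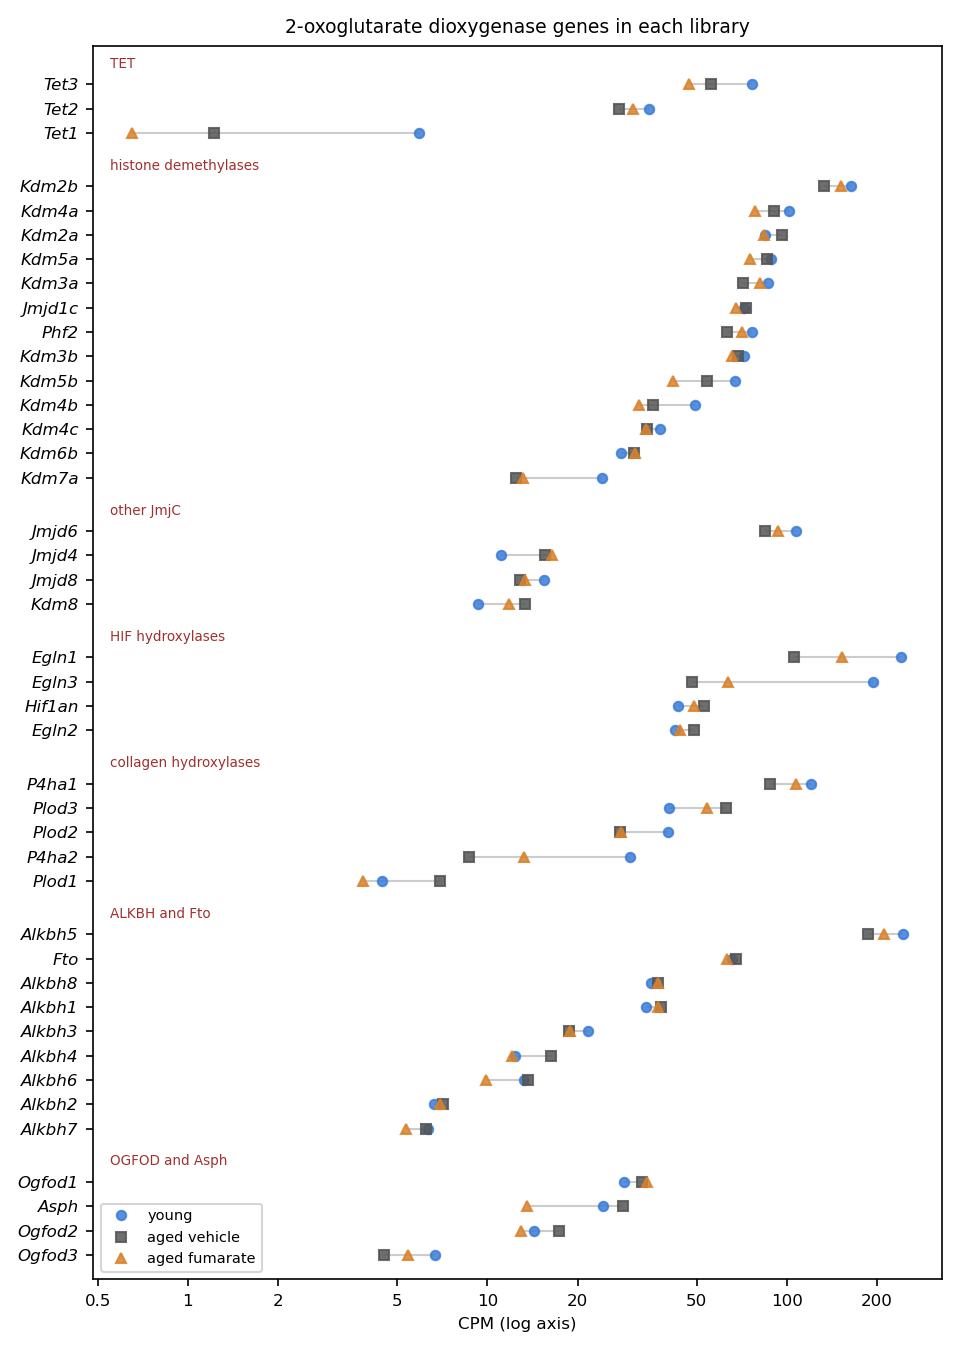
Level of each of the 42 genes in CPM on a log axis, grouped by family, with 1 point per library (circle young, square aged vehicle, triangle aged fumarate) and a grey line over their range. Most genes have points close together, while Egln3 runs from 48.1 to 194 CPM and Tet1 from 0.65 to 5.93 CPM. Levels are not corrected for transcript length.

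The comparison of aged vehicle with young cells asks how activated T cells differ with age. A dosing course is given for the aged mice only, so age and course cannot be told apart. Below, "with age" stands for aged vehicle over young. In the aged vehicle library 5 of the 42 genes were at least 1.5-fold lower (11.9%), where 6.73% of the 13750 genes with a mean of at least 1 CPM were, and 1 was at least 1.5-fold higher (2.38%), where 16.5% of all genes were. The lower genes were Egln3, P4ha2, Tet1, Egln1 and Kdm7a, and the higher one was Plod3. In plain CPM Plod1 was 1.56-fold higher too, but it was within the limit on CPM + 1. The median log2 ratio of the 42 was −0.11, beside 0.03 for all genes, and 24 of the 42 lay below 0. These counts move with the scaling. When the libraries were set equal on the T cell markers, which shifts every log2 CPM ratio by 0.464, 13 members were higher and 4 lower (median 0.35), beside 38.2% and 2.2% of all genes (median 0.46). Egln3, P4ha2, Tet1 and Egln1 were the 4 that stayed lower.

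For aged fumarate against aged vehicle, the question is how cells from fumarate-treated aged mice differed from those of vehicle-treated aged mice. Here 2 of the 42 genes were at least 1.5-fold lower (4.76%), Asph and Plod1, where 11.2% of all genes were, and none was at least 1.5-fold higher, where 2.15% were. The median was −0.03, beside −0.02 for all genes, so that the members as a group sat where all genes did. With scaling to the T cell markers 6 were lower and none higher, beside 17.8% and 0.785% of all genes. With 3 other scalings (TMM, median-of-ratios and upper-quartile) P4ha2 passed the limit as higher. In plain CPM P4ha2 was 1.53-fold higher and Tet1 1.87-fold lower, but both were within the limit on CPM + 1.

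The pair of aged fumarate and young libraries had 9 of 42 genes at least 1.5-fold lower (21.4%), where 6.79% of all genes were, and none higher, where 10.5% were. The 9 were Tet1, Egln3, P4ha2, Kdm7a, Asph, Tet3, Kdm5b, Egln1 and Kdm4b. The median was −0.17, beside 0.00 for all genes, and it was 0.03 with scaling to the T cell markers, when 5 genes were lower and 2 higher, beside 4% and 15.2% of all genes. The 3 pairs share libraries, so they are not independent of each other and are given side by side.

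**Figure D2:**
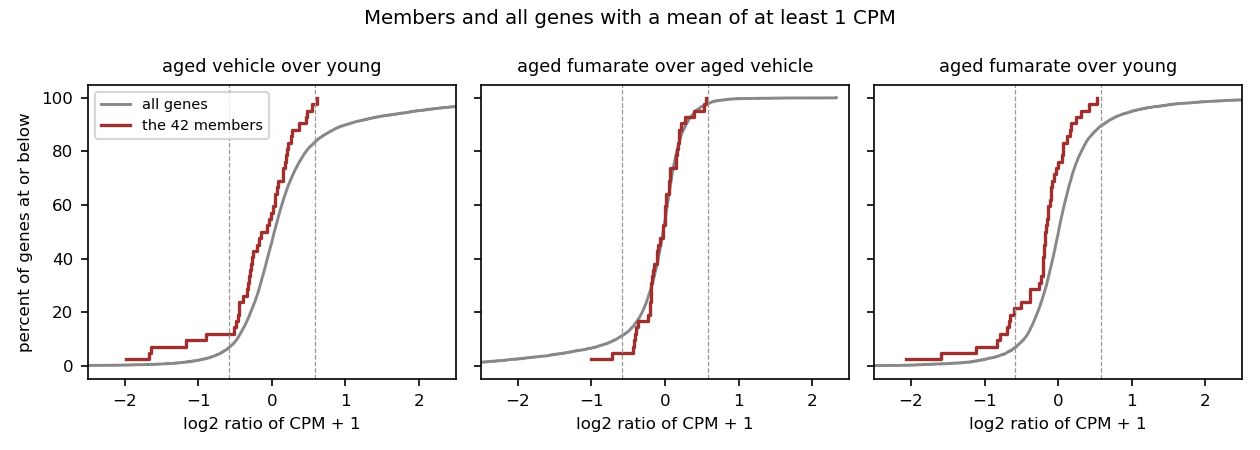
Share of genes, in percent, at or below each log2 ratio of CPM + 1, for the 42 members (red) and all 13750 genes with a mean of at least 1 CPM (grey), in 1 panel per pair of libraries; dashed lines mark 1.5-fold and ratios outside −2.5 to 2.5 are not drawn. Against the young library the red line lies to the left of the grey one, with medians of −0.11 and −0.17 beside 0.03 and 0.00, and for fumarate over vehicle the lines run together near the middle while the grey one has more genes below the lower limit.

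Among the HIF hydroxylases, Egln3 and Egln1 were past 1.5-fold lower in both aged libraries against young, and Egln2 and Hif1an were within that limit. Egln1, Egln2 and Egln3 encode prolyl hydroxylases that mark HIF alpha subunits for destruction by the VHL complex when oxygen is present, and Hif1an encodes an asparaginyl hydroxylase that keeps HIF from binding its coactivators. Egln1 and Egln3 are themselves well known HIF targets, and the same is known of P4ha1, P4ha2, Plod2, Kdm3a and Kdm4b. The known HIF response site contains the letters ACGTG or GCGTG. Promoter windows are shown here for the 4 members with the lowest ratios for aged vehicle over young among holders of either motif. Motif and low value therefore go together by choice in these windows. They run from 250 bases before to 50 after the RefSeq start (build GRCm38.p6), read 5′ to 3′ on the strand of the gene, with capitals for each match on either strand (CACGT and CACGC are the motifs on the other strand). The windows are chr12:54203825-54204124 for Egln3 (minus strand), chr11:54100674-54100973 for P4ha2 (plus strand), chr8:124949205-124949504 for Egln1 (minus strand) and chr6:39206724-39207023 for Kdm7a (minus strand).
Egln3: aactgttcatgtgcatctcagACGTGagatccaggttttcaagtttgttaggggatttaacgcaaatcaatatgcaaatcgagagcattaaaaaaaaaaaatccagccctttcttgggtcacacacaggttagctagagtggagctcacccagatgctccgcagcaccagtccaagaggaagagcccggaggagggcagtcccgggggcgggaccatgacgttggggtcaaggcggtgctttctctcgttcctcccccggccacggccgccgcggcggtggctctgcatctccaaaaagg
P4ha2: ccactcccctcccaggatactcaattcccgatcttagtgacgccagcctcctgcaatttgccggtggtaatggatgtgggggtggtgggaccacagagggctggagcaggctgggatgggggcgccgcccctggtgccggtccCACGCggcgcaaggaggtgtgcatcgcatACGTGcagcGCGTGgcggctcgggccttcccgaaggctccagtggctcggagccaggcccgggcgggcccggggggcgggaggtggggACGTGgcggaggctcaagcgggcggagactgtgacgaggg
Egln1: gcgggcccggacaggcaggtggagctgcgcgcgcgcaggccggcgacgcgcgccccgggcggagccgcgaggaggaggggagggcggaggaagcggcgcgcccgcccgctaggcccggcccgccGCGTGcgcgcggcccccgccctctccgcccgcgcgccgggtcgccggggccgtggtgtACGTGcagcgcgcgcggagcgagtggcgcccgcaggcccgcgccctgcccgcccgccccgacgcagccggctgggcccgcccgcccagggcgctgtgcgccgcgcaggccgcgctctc
Kdm7a: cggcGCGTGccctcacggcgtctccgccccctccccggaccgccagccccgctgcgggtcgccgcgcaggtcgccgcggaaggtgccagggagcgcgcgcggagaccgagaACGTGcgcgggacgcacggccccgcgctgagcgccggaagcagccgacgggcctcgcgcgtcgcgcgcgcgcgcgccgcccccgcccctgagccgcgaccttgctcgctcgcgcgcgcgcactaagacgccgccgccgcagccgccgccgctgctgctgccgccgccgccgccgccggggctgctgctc

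Egln3 had 1 match, from 229 to 225 bases before the start, shown as −229 to −225. Egln1 had an ACGTG at −68 to −64 and a GCGTG at −126 to −122. P4ha2 had 2 matches of each motif, the nearest before the start being GCGTG at −69 to −65 and ACGTG at −78 to −74, and Kdm7a had ACGTG at −139 to −135 and GCGTG at −246 to −242. Such letters are common: ACGTG stood in 19.6% of 32851 promoter windows and in 14 of the 44 windows of members (31.8%), and GCGTG in 32.4% and 56.8%. Windows of genes with a mean of at least 1 CPM held them in 25.8% and 50.6%. Their median GC content was 60.7%, near the 60.8% of the members' windows and above the 52.7% of all windows. Either motif stood in 63.6% of the members' windows and in 62.2% of those of genes with a mean of at least 1 CPM. The window of Plod3, the member higher with age, held 1 ACGTG and 3 GCGTG. RefSeq windows were found for 34 of the 42 members. The 14 members with ACGTG in a window had a median log2 ratio of −0.31 for aged vehicle over young, with 4 lower and 1 higher, and the 20 without it a median of 0.02, with 1 lower (Tet1). Some of those 20, Kdm2b, Kdm3a and Alkbh5 among them, held GCGTG in a window. The members were not split by the presence of either motif, so these medians hold for ACGTG alone. Over all measured genes with a window, 7.45% of 2818 with ACGTG were lower and 16.1% higher (median 0.07), and 6.37% of 6624 without it were lower and 18.4% higher (median 0.06). The member counts are small, and their difference was not tested. For fumarate over vehicle the medians were 0.03 and −0.03. A match is a description of letters and not evidence of binding.

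Egln3 (mm10, bases 54178981 to 54203860 of chromosome 12) had 194 CPM in the young, 48.1 CPM in the aged vehicle and 63.4 CPM in the aged fumarate library. The young library was the high one and the aged libraries lay close to each other. In aged vehicle over young the log2 ratio of CPM + 1 was −1.99, a 4.03-fold lower CPM, and the 95% counting interval of the log2 CPM ratio was −2.12 to −1.91. Its ratio ranked 35 from the lowest among 13750 genes. With fumarate the gene was 1.32-fold above vehicle, an interval of 0.26 to 0.54, within the 1.5-fold limit, and still 3.06-fold below young.

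Egln1 (bases 124908587 to 124949324 of chromosome 8) had 239.9 CPM in the young, 106 CPM in the aged vehicle and 153 CPM in the aged fumarate library. The log2 ratio was −1.17 for aged vehicle over young (interval −1.25 to −1.11) and 0.53 for fumarate over vehicle (0.44 to 0.62). The latter sat above 97.1% of all genes but under the limit, which only the upper-quartile scaling carried it past. For fumarate over young the log2 ratio was −0.65 (−0.72 to −0.58), a 1.57-fold lower CPM, and it was −0.44, within the limit, when scaled to the T cell markers. Egln2, the third paralog, was at 42.4, 49.1 and 43.9 CPM, and Hif1an at 43.2, 52.7 and 48.8 CPM, in the order young, vehicle, fumarate. Both stayed within 1.5-fold in every pair, except that they were higher with age when scaled to the T cell markers, by which the median of the 4 genes was −0.02 in place of −0.48.

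The make-up of the Egln level differed between libraries. Per kilobase of exon their sum was 155 in the young, 65.0 in the aged vehicle and 82.0 in the aged fumarate library, in CPM per kb. Egln3 made up 47.1% of that sum in the young, 27.8% in the aged vehicle and 29.0% in the fumarate library. Egln2 made up 9.78%, 26.9% and 19.1%, and Egln1 43.1%, 45.3% and 51.9%. These shares do not depend on how the libraries are scaled, but they do depend on the exon lengths used.

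**Figure D3:**
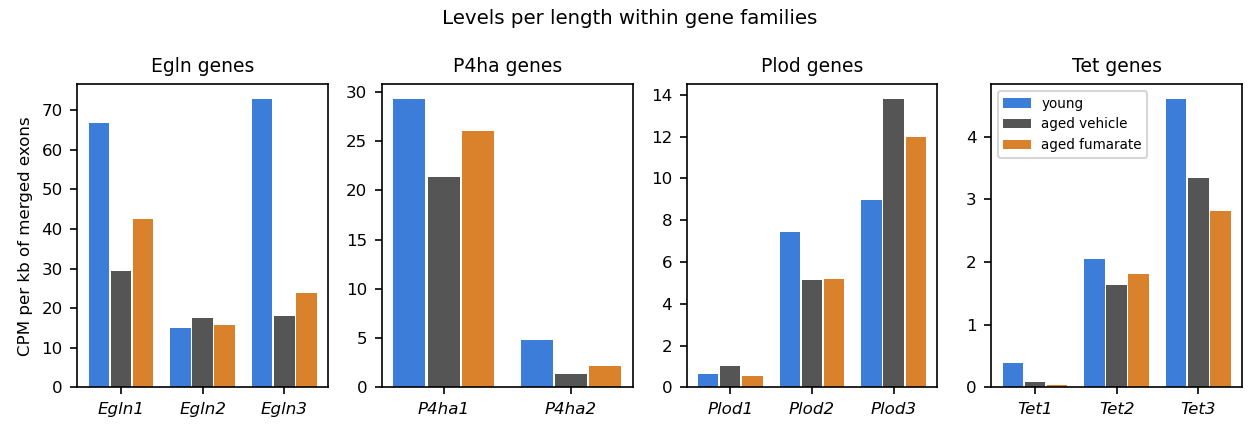
Levels per length, in CPM per kilobase of merged exons, of the Egln, P4ha, Plod and Tet genes, with 1 bar per library (blue young, grey aged vehicle, orange aged fumarate) and no error bars since each group is 1 library. Egln3 stands at 72.8 in the young and at 18.1 and 23.8 in the aged libraries, while Egln2 stays between 15.1 and 17.5. The vertical scale differs between panels.

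Collagen hydroxylases lay on both sides, with a median of −0.45 for aged vehicle over young (0.01 with scaling to the T cell markers). P4ha1 and P4ha2 encode alternative catalytic subunits of collagen prolyl 4-hydroxylase, which work with P4hb, and the 3 Plod genes encode lysyl hydroxylases of collagen. P4ha2 (bases 54100095 to 54131665 of chromosome 11) had 30 CPM in the young, 8.69 CPM in the aged vehicle and 13.3 CPM in the aged fumarate library. Its log2 ratio was −1.68 for aged vehicle over young (interval −2.04 to −1.54), 0.56 for fumarate over vehicle (0.29 to 0.93) and −1.12 for fumarate over young (−1.41 to −0.95). P4ha1 had the same order with smaller differences, at 120.5, 88.1 and 107 CPM. It was the main form in each library, with 85.9% of the summed P4ha level per length in the young, 93.9% in the aged vehicle and 92.4% in the fumarate library.

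Among the lysyl hydroxylases Plod2 was at 40.1, 27.7 and 27.9 CPM, within the limit, and Plod3 at 40.4, 62.5 and 54.3 CPM, in the order young, vehicle, fumarate. Plod3 (bases 136987019 to 136996648 of chromosome 5) was the only member at least 1.5-fold higher with age on CPM + 1. Its log2 ratio of 0.62 (interval 0.52 to 0.74) lay inside the limit with 4 of the 5 other scalings. The gene shares 529 exon bases with Znhit1 on the opposite strand (31, 27 and 26.3 CPM). Whether reads were counted by strand is not given in the sources used here. Plod3 took 52.5% of the Plod level per length in the young and 69.2% in the aged vehicle library, and Plod2 43.6% and 25.7%. Plod1 (bases 147909753 to 147936767 of chromosome 4) was low throughout, at 4.46, 6.95 and 3.83 CPM. With age its CPM was 1.56-fold higher (interval 0.29 to 0.98 on the log2 scale), but its log2 ratio of CPM + 1 was 0.54, within the limit. Plod1 was lower in the fumarate than in the vehicle library by a log2 ratio of −0.72 (interval −1.36 to −0.38, from 120 and 53 estimated reads).

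Collagen messages themselves were low. Of 11 collagen genes, 7 were in the table and 1, Col18a1, passed 1 CPM on average. Col18a1 was at 0.464 CPM in the young, 40.3 CPM in the aged vehicle and 3.68 CPM in the fumarate library, high in the same library as the erythroid, platelet, basophil and mast cell markers. P4hb, the partner of the P4ha subunits, was at 711 CPM in the young. It and the other 3 collagen folding genes in the table stayed within 1.5-fold, except Crtap. Crtap was at 17.5 CPM in young and 27.4 CPM in aged vehicle cells. With scaling to the T cell markers 3 of the 4 were higher with age, beside 38.2% of all genes.

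The TET genes, whose enzymes oxidise 5-methylcytosine in DNA, had their highest values in the young library. Tet1 (bases 62804570 to 62908996 of chromosome 10) had 5.93 CPM in the young, 1.22 CPM in the aged vehicle and 0.65 CPM in the aged fumarate library, which are 243, 21 and 9 estimated reads. Its log2 ratio of CPM + 1 was −1.64 for aged vehicle over young (interval of the CPM ratio −3.00 to −1.64) and −2.07 for fumarate over young (−4.34 to −2.24). Between the aged libraries the interval of −2.22 to 0.28 included no difference, so none was detectable at this depth. Tet2, a regulator of T cell memory, was at 34.6, 27.6 and 30.6 CPM, within the limit in all pairs. Tet3 (bases 83362373 to 83459084 of chromosome 6) had 76.7, 55.7 and 47.1 CPM, with log2 ratios of −0.45 for aged vehicle and −0.69 (interval −0.83 to −0.58) for aged fumarate over young. Tet3 made up most of the TET level per length in each library, 65.4%, 66.1% and 60.3%, while the share of Tet1 was 5.45%, 1.56% and 0.898%. Set equal on the T cell markers, the TET median for aged vehicle over young was 0.00, and only Tet1 stayed past the limit.

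Histone demethylases remove methyl groups from histone lysines, each with its own preferred mark. Their median for aged vehicle over young was −0.17 (0.29 with scaling to the T cell markers). In that pair 12 of the 13 stayed within 1.5-fold, beside 10551 of 13750 genes. The exception was Kdm7a, which acts on H3K9 and H3K27. Kdm7a (bases 39136623 to 39206789 of chromosome 6) had 24.2 CPM in the young, 12.5 CPM in the aged vehicle and 13.1 CPM in the fumarate library, a log2 ratio of −0.90 (interval −1.17 to −0.74) with age and 0.07 (−0.22 to 0.36) between the aged libraries. With scaling to the T cell markers it was no longer past the limit with age. Phf2, a relative of Kdm7a, was at 76.2, 63.2 and 71.0 CPM.

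Kdm5b, a demethylase of H3K4 (bases 134560171 to 134635285 of chromosome 1), was at 67.0, 54.0 and 41.8 CPM in young, vehicle and fumarate cells, with a log2 ratio of −0.67 for fumarate over young (interval −0.81 to −0.55). Its paralog Kdm5a was at 88.6, 85.9 and 75.5 CPM. Kdm4b, which acts on H3K9 and H3K36 (bases 56326062 to 56402870 of chromosome 17), was at 49.2, 35.8 and 32.0 CPM, which gives a log2 ratio of −0.60 for fumarate over young (−0.77 to −0.47) that lies just past the limit. Kdm4a was at 102, 90.6 and 78.5 CPM and Kdm4c at 37.6, 34.0 and 33.9 CPM, both within it. In all 3 of these Kdm4 genes the young library had the highest value. Their paralog Kdm4d, outside the 42, went the other way, at 2.8, 4.98 and 4.62 CPM. Both Kdm5b and Kdm4b were within the limit in fumarate over young once the libraries were set equal on the T cell markers.

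The remaining demethylases were within 1.5-fold in every pair, but with scaling to the T cell markers Kdm2a and Kdm6b were higher with age, at log2 ratios of 0.65 and 0.59. Kdm6b, which removes the polycomb mark H3K27 methylation and is induced in activated T cells, was at 27.9, 30.9 and 31.2 CPM. The H3K36 demethylases Kdm2a and Kdm2b were at 84.4, 96.3 and 83.9 CPM and at 164, 133 and 152 CPM. Kdm3a, an H3K9 demethylase, was at 86.4, 71.1 and 81.3 CPM, and its relatives Kdm3b and Jmjd1c at 71.8, 68.5 and 65.5 CPM and at 72.1, 72.8 and 67.5 CPM. For fumarate over vehicle all 13 histone demethylases were within 1.5-fold, beside 11909 of 13750 genes. They ran from −0.36 (Kdm5b) to 0.19 (Kdm2b and Kdm3a), with a median of −0.06. By the T cell marker scaling the median was −0.32 and Kdm5b was past the limit as lower.

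Of the other JmjC enzymes none passed the limit in any pair, a count with no background over all genes. Kdm8 and Jmjd4 passed it with age when scaled to the T cell markers. Jmjd6, a lysyl hydroxylase of splicing proteins, was at 107 CPM in the young, 84.4 CPM in the aged vehicle and 93.6 CPM in the fumarate library. Kdm8 was at 9.32, 13.4 and 11.8 CPM and Jmjd4, a hydroxylase of a translation termination factor, at 11.1, 15.6 and 16.4 CPM, both lowest in the young library. Jmjd8 was at 15.5, 12.8 and 13.4 CPM, but 39.3% of its exon bases are shared with Stub1 on the opposite strand, which was at 77.0, 82.8 and 79.2 CPM.

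In the ALKBH and Fto group 9 of 9 genes were within 1.5-fold in all pairs. The share of all genes within it in every pair was not computed, and in each single pair most genes were within it. Alkbh5 and Fto demethylate N6-methyladenosine in RNA. Alkbh5 was at 245 CPM in the young, 187 CPM in the aged vehicle and 211 CPM in the fumarate library, and Fto at 65.8, 67.5 and 63.2 CPM. Log2 ratios of the 9 ran from −0.39 (Alkbh5) to 0.37 (Alkbh4) for aged vehicle over young and from −0.43 (Alkbh6) to 0.18 (Alkbh5) for fumarate over vehicle. Alkbh2 and Alkbh3, which repair alkylated DNA bases, were at 6.64, 7.10 and 6.97 CPM and at 21.6, 18.7 and 18.8 CPM. The tRNA enzymes Alkbh1 and Alkbh8 were at 33.9, 37.9 and 37.1 CPM and at 35.3, 37.0 and 37.0 CPM. Alkbh4 was at 12.4, 16.3 and 12.1 CPM, Alkbh6 at 13.2, 13.7 and 9.89 CPM and Alkbh7, a mitochondrial enzyme, at 6.34, 6.26 and 5.34 CPM. For Alkbh2, 29.5% of exon bases are shared with Usp30 on the opposite strand. Scaled to the T cell markers, 2 of the 9 passed the limit as higher with age, Alkbh1 and Alkbh4, and 2 as lower with fumarate, Alkbh4 and Alkbh6. Of all genes, 38.2% and 17.8% did so.

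Asph, the aspartyl and asparaginyl beta-hydroxylase of the endoplasmic reticulum (bases 9448069 to 9669344 of chromosome 4), had the lowest ratio of the 42 for fumarate over vehicle. It was at 24.3 CPM in the young, 28.4 CPM in the aged vehicle and 13.6 CPM in the aged fumarate library. The fumarate library was the low one, with a log2 ratio of −1.01 against vehicle (interval −1.31 to −0.81) and −0.79 against young (−1.07 to −0.61). Of all genes, 6.52% had a lower ratio for fumarate over vehicle, so differences of this size were common in that pair. All 22 erythroid, platelet, basophil and mast cell markers were lower in the same pair, and for fumarate over young 9 of 12 and 9 of 10 of them were higher. Their part in the Asph values was not tested. Plod1, the other gene lower with fumarate, was at about its level in the young library. Ogfod1, a prolyl hydroxylase of a ribosomal protein, was at 28.6, 32.7 and 34.1 CPM, Ogfod2 at 14.3, 17.3 and 12.9 CPM and Ogfod3 at 6.69, 4.5 and 5.41 CPM, all within 1.5-fold. Scaled to the T cell markers, Ogfod1 (0.63), Ogfod2 (0.69) and Asph (0.66) passed the limit as higher with age, on the log2 scale, and Ogfod2 (−0.64) joined Asph as lower with fumarate.

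**Figure D4:**
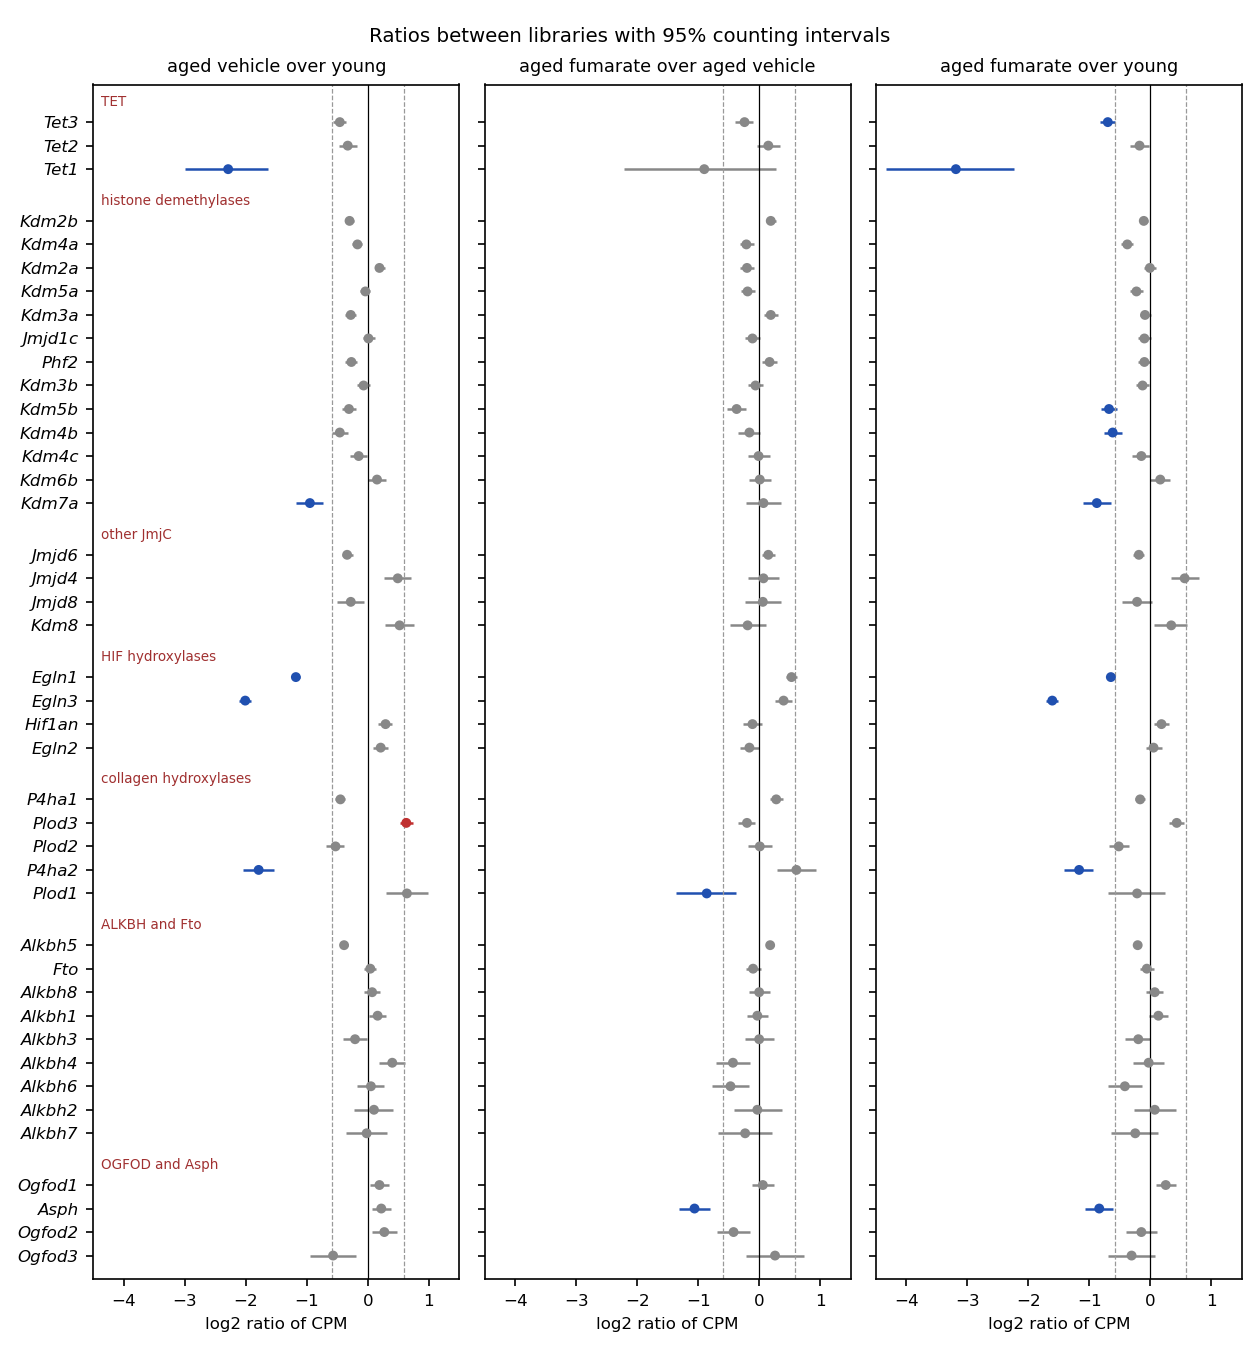
Log2 ratio of CPM (without the added 1) of each of the 42 genes in the 3 pairs of libraries, with lines for the 95% interval from counting error alone; dashed lines mark 1.5-fold, and colour marks genes past that limit on CPM + 1 (blue lower, red higher). Egln3, P4ha2, Tet1, Egln1 and Kdm7a lie left of the limit for aged vehicle over young, and Asph and Plod1 for fumarate over vehicle.

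Counting error was small beside many of these differences. The interval excluded no difference for 33 of 42 genes in aged vehicle over young, 21 in fumarate over vehicle and 24 in fumarate over young, and for every member past 1.5-fold in its pair. This was not counted over all genes, so these counts have no background and describe no trait of the members. Intervals widen with fewer reads, and the fumarate library was the shallowest, so the counts of the pairs cannot be set against each other. Variation between mice and cultures is not in these intervals, so an interval that excludes 0 compares 2 libraries and not 2 conditions.

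Genes of the pathways around these enzymes were read the same way. The counts of each list below stand beside these shares of all genes. For aged vehicle over young 16.5% were higher and 6.73% lower (38.2% and 2.2% when scaled to the T cell markers). For fumarate over vehicle 2.15% were higher and 11.2% lower (0.785% and 17.8% by that scaling). For fumarate over young 10.5% were higher and 6.79% lower. Of HIF targets outside the 42, 23 of 30 were at least 1.5-fold lower in aged vehicle over young and none higher, with a median of −0.71 (−0.24 with 6 lower and 2 higher when scaled to the T cell markers). Ak4, an adenylate kinase, was at 89.1 CPM in the young, 27 CPM in the aged vehicle and 39.6 CPM in the fumarate library, Pdk1 at 211, 65.1 and 102 CPM, and Bnip3, a mitophagy receptor, at 194, 62.4 and 109 CPM. For fumarate over vehicle 4 of 30 were higher and 1 lower, with a median of 0.38, led by the lactate exporter Slc16a3 at 166 and 328 CPM. The lower one was Narf, at 46.6 and 24.0 CPM. Scaled to the T cell markers 1 was higher and 2 lower, with a median of 0.12. For fumarate over young 8 of 30 were lower, with a median of −0.39. Many of these targets are glycolysis genes.

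Among the HIF factors Hif1a was at 357 CPM in the young, 383 CPM in the aged vehicle and 430.3 CPM in the fumarate library, within 1.5-fold. Epas1, which encodes HIF-2 alpha, was at 1.78, 10.9 and 14.9 CPM. Vhl, the ubiquitin ligase subunit that binds hydroxylated HIF, was at 36.3, 22.2 and 22.7 CPM, which gives a log2 ratio of −0.69 for aged vehicle over young that was within the limit when scaled to the T cell markers. Of 11 measured genes of this list, 2 were higher (Epas1 and Arnt2) and 1 lower with age, and none passed the limit for fumarate over vehicle (1 lower when scaled to the T cell markers).

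Of the enzymes that make or use 2-oxoglutarate, 16 of 19 were within 1.5-fold for aged vehicle over young, beside 10551 of 13750 genes. For fumarate over vehicle 18 of 19 were, beside 11909 of 13750 genes. Scaled to the T cell markers, 4 were higher and 1 lower with age, and 2 lower with fumarate. Gpt2, a transaminase, was at 42.7 CPM in young cells, against 8.63 and 11.5 CPM in the aged libraries, and Psat1, the transaminase of serine synthesis, at 417, 267 and 274 CPM. Idh1, cytosolic isocitrate dehydrogenase, was at 10.6, 28.0 and 8.23 CPM, high in the library with the markers of other blood lineages. Of 12 enzymes of succinate and fumarate metabolism 11 were within the limit with age and all 12 for fumarate over vehicle, with the same background of all genes. The exception, Fah, which releases fumarate in tyrosine breakdown, was at 4.86, 8.51 and 11.5 CPM.

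Among 21 further 2-oxoglutarate dioxygenases, 16 were in the table and 14 reached 1 CPM on average. With age 4 were higher and 1 lower, and 6 were higher and none lower when scaled to the T cell markers. Riox2, a ribosomal oxygenase, was at 80.2, 129.9 and 130.0 CPM and Phyh, which oxidises phytanic acid in peroxisomes, at 15.3, 8.98 and 11.3 CPM. P3h2, a collagen prolyl 3-hydroxylase, was at 0.268, 13.1 and 1.44 CPM, again high in the aged vehicle library alone, and P3h1 at 15.3, 23.2 and 13.6 CPM was with it the second gene lower in fumarate over vehicle.

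The writers of the marks that these enzymes remove gave mixed counts. Most genes of the table were within the limit for aged vehicle over young (10551 of 13750) and for fumarate over vehicle (11909). Of the 4 DNA methylation genes Dnmt3b was at 17.0, 27.6 and 7.87 CPM, the lowest ratio of this list for fumarate over vehicle at −1.69, while Dnmt1 was at 415, 310 and 336 CPM, within the limit. Among H3K27 writers Ezh2 was at 284, 179.8 and 191 CPM and Ezh1 at 21.8, 36.5 and 27.9 CPM, past the limit with age in opposite directions. Ezh2 was within the limit when scaled to the T cell markers. Of 5 H3K36 writers Nsd2 alone was past it with age, at 207 and 126 CPM, and was within it by that scaling. The 6 H3K4 writers and the 6 H3K9 writers were all within 1.5-fold in both aged vehicle over young and fumarate over vehicle, and so were the 11 writers and readers of N6-methyladenosine and the flavin-dependent demethylases Kdm1a and Kdm1b, which do not use 2-oxoglutarate. Scaled to the T cell markers, 2 of the H3K4 writers, 1 of the H3K9 writers and 2 of the N6-methyladenosine genes were higher with age, and 1 of the H3K9 writers was lower with fumarate.

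**Figure D5:**
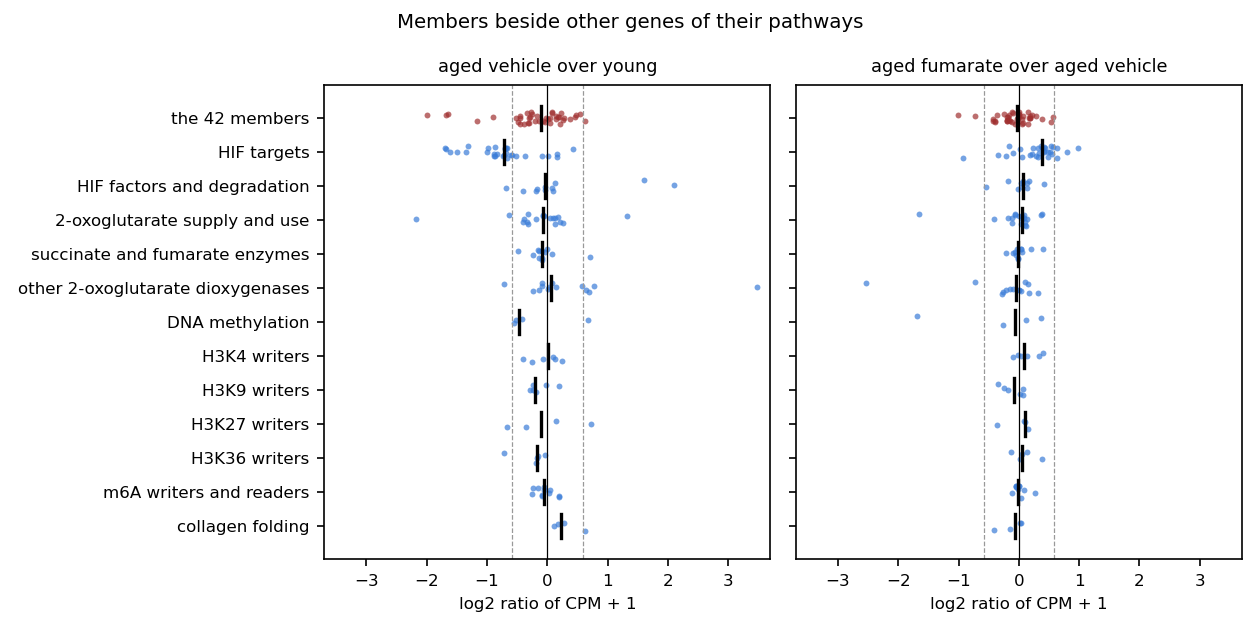
Log2 ratio of CPM + 1 of each gene with a mean of at least 1 CPM (points, spread vertically for view) and the median (black bar) for the 42 members in red and 12 other gene lists in blue, for aged vehicle over young and fumarate over vehicle; dashed lines mark 1.5-fold. HIF targets have medians of −0.71 and 0.38, while the members sit at −0.11 and −0.03.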

How the data were processed

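The deposited table holds CPM values for 17796 genes in 3 libraries, made by the authors from reads aligned to mm10 with STAR and handled in Partek, per the submitters' processing notes. The sources used here do not state versions, annotation or strand setting. The table is named as raw counts, but each column sums to 1000000. Low values gave a step of 1 read, and so an estimated depth of 41, 17.3 and 13.9, in units of 1000000 reads, in the order young, vehicle, fumarate. Of the values, 58.5%, 65.6% and 68.2% were whole reads within 0.02 of a read, too few for a count model, and a value of 0 allows up to 0.0732, 0.174 and 0.217 CPM (3 reads).

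Ratios are log2 of CPM + 1, over genes with a mean of at least 1 CPM, with a limit of 1.5-fold. Intervals are 95% Clopper-Pearson intervals of the log2 CPM ratio from estimated reads, and like the floors cover counting error only. Exon lengths and positions came from GENCODE M21, and promoter windows (34 of 42 members) from RefSeq, build GRCm38.p6. Protein sequences were not used here. On the opposite strand, 10 members share exon bases with a gene of the table. The members and lists were chosen with earlier results of these data known. Named genes were all members and, of other lists, up to 4 genes past the limit with the largest ratios per pair, plus a few chosen after their values were seen (Hif1a, P4hb, Dnmt1, Znhit1 and Stub1 among them). Alternatives were other pseudocounts, minimums, scalings and a 2-fold limit. The scripts (pandas 2.3.3, scipy 1.17.1, numpy 2.4.6 and matplotlib 3.10.9 under Python 3.11.15) were tested on simulated data.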

Additional observations from a re-analysis of the deposited data

How the results depend on the processing

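Counts of members past 1.5-fold were small, so few genes moved them. For aged vehicle over young, 2 genes were higher with a pseudocount of 0.1 CPM (Plod1 added), and 0 with a pseudocount of 5 CPM, with TMM, median-of-ratios or upper-quartile scaling, with a total that leaves out receptor segments, mitochondrial, ribosomal protein and pseudogene rows, or with a 2-fold limit. For fumarate over vehicle, 1 was higher with a pseudocount of 0.1 CPM, TMM or median-of-ratios scaling (P4ha2), and 2 with upper-quartile scaling (Egln1 added). In that pair 1 was lower with a pseudocount of 5 CPM, a minimum of 10 CPM or a 2-fold limit. For fumarate over young 3 were lower with the 2-fold limit. Scaling to the T cell markers moved most: 13 higher and a median of 0.346 for aged vehicle over young, 6 lower and a median of −0.269 for fumarate over vehicle, and 2 higher, 5 lower and a median of 0.032 for fumarate over young. The cause was not tested. Of the single-gene values under the alternatives, 771 stayed within counting error and 111 moved beyond it. The largest scaling shift, 0.464 on the log2 scale, was smaller than the 1.5-fold limit, and a pseudocount does not change a sign. No member past the limit could therefore change sign, and none did. No paired analysis was possible because each group has 1 library. Depth limits Tet1 most, with 21 and 9 estimated reads in the aged libraries.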
